A study of Drosophila melanogaster with 72 samples.

Results

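The genes described here were chosen by their daily profile in control outer photoreceptors. They are the 130 genes whose nuclear RNA peaked in the dark phase in flies that expressed a non-specific RNAi, and the main question is what became of that profile when RNAi was directed against the H3K4 methyltransferases Set1, Trr or Trx. A gene was selected on 4 values from the 18 control libraries: a mean of at least 20 CPM (counts scaled to the total of each library), a 24-h cosine fitted to log2(CPM + 1) with an R2 of at least 0.7, a fitted peak-to-trough difference (amplitude) of at least 1, and a fitted peak from ZT15 to before ZT21. ZT0 is lights on and ZT12 is lights off. Of 17895 gene features in the files, 3669 reached 20 CPM in the control, 480 of these, clock genes aside, met the amplitude and R2 criteria at any peak time, and 130 peaked in the night window. The rule sets aside 9 clock genes (per, tim, cry, Clk, cyc, vri, Pdp1, cwo and Cipc), of which 0 met the criteria with a night peak. Because control values chose the members, the control rhythm and every difference in rhythm from the control are given as description, and tests are confined to libraries or measures that the rule did not use.

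All flies were males at day 10 of adult life, kept in 12 h of light and 12 h of darkness, in which Rh1-Gal4 drove UAS-GFP-KASH and a UAS-RNAi transgene in outer photoreceptors. The RNAi transgene targeted mCherry (the control), Set1, Trr or Trx, with 1 fly line for each target. Nuclei were pulled down from the heads of 400 pooled flies per library, and nuclear RNA was sequenced at ZT0, ZT4, ZT8, ZT12, ZT16 and ZT20 with 3 replicates each. This gave 72 libraries, of which 71 were used, since the library labelled Set1 ZT20 replicate 1 held only 687 counts and was left out of the study as well. The study describes its replicates as biological, and p-values measure the spread between these libraries.

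Total counts lay between 8424081 and 24586538 per library. The RNA of the targeted genes did not follow the labels closely. Against the control and with TMM scaling, Set1 changed by -0.03 on the log2 scale in the libraries labelled Set1 (edgeR quasi-likelihood test, adjusted p = 0.747). On that scale trr changed by 0.47, -0.94 and -0.86 with the Set1, Trr and Trx labels. With Trr and Trx, Set1 changed by -0.39 and -0.50 and trx by -0.01 and -0.17. These falls depend on the scaling. By file totals the median of trr was 146.8 CPM in the control, 130.5 CPM with Trr and 146.8 CPM with Trx. That of trx was 449 CPM in the control, 662 CPM with Trr and 628 CPM with Trx. Groups are therefore called here by their labels. Control and Set1 libraries were sequenced on HiSeq and Trr and Trx libraries on NovaSeq X Plus according to the labels, and platform and genotype cannot be told apart. The library labelled mCherry ZT12 replicate 1 stood apart, with a root mean square deviation from its group of 0.89 on the log2 scale against a median of 0.20 over all libraries. Without it the rule chose 143 genes, 126 of them among the 130. Of these 126, 123, 55 and 68 were higher by night with the Set1, Trr and Trx labels in the test described below, and 1, 61 and 65 were lower in mean level. Set1 ZT12 replicate 3 was at 0.51.

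Night-phased RNA is a common output of the Drosophila clock. The activators Clock and Cycle drive transcription of period, timeless and other targets toward dusk, and repressors and secondary transcription factors then spread the peaks of downstream genes over the night and the morning. In photoreceptors light itself also sets daily changes, because phototransduction alters calcium and metabolism within the cell. Trr and Trx are the Drosophila members of the MLL family, which act mainly at enhancers and at developmental gene promoters, whereas Set1 deposits most H3K4 trimethylation at active promoters.

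Most members peaked late in the night. The fitted control peak was from ZT18 to ZT21 in 113 members, of which 97 were at or after ZT19, and from ZT15 to ZT18 in 17. The median amplitude was 1.48, with quartiles of 1.22 and 1.88, and 22 members exceeded 2. Mean control levels ran from 20.2 CPM for CG31798 to 10146 CPM for Sh, with a median of 169.8 CPM. By reference annotation 121 members encode proteins and 8 are noncoding RNA genes, and FBgn0029656 matched no name. Their transcribed spans were long: the median was 13007.5 bases, against 5996 bases for all features of at least 20 CPM and 6963 bases for the 350 other control rhythmic genes, and 35.4% of members spanned over 20000 bases, against 19.4% and 21.1%. They lay on every major arm, with 23 on 2L, 30 on 2R, 27 on 3L, 20 on 3R, 27 on X and 3 on chromosome 4.

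Some members cannot be counted as separate genes. The authors' counting did not use strand, and spans overlapped in 14 pairs of members, among them Ndae1 with CG43800 inside it, EcR with CG14589, Pkc53E with CG43788 and CG43789, dnc with FBgn0029656, and CG42322 with CG31199, CG31200 and Prosalpha4T1. Counting each cluster of overlapping spans once left 116. Over 50% of the exon bases were shared with another gene in 5 members, namely CG44195 (95.5%, with Ank2), crc (73.5%, with CG46314), asRNA:CR45133 (63.5%, with KCNQ), CG5151 (57.5%, with CG32152) and Nhe2 (50.7%, with CG46307). Reads on the shared bases cannot be assigned to either gene of a pair alone. Near the thresholds, Pura and ck had an R2 just above 0.7 (0.7004 and 0.7035) and Ekar and dmpd just below (0.698 and 0.695). Cbl and CG5151 had amplitudes of 1.004 and 1.008, and Eip93F and jef missed with 0.969 and 0.962. CG32647 and crc peaked at ZT15.3, while CG33181 (ZT14.4) and CG15403 (ZT14.3) peaked too early. At the late edge lncRNA:CR44299 (ZT20.97) and Ogdh (ZT20.93) were in, and Cpr73D (ZT21.004) and CG14443 (ZT21.009) were out. At the level floor, CG31798 (20.2 CPM) and CG43800 (21.9 CPM) were in and CG31808 (19.1 CPM) and tRNA:Arg-TCG-2-3 (18.7 CPM) were out. spen, which encodes a nuclear corepressor, also missed the rule, with an amplitude of 0.26 and an R2 of 0.27 at a mean of 3399 CPM.

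The daily profile was broad rather than sharp. In the control the median member stood 0.62 above its own mean at ZT20, 0.50 above at ZT16 and 0.37 above at ZT0 on the log2 scale, and 0.49, 0.62 and 0.34 below it at ZT4, ZT8 and ZT12. The libraries labelled Set1 had nearly the same outline, with 0.58 at ZT20 and -0.50 at ZT8. In those labelled Trr the whole range shrank to between -0.16 at ZT8 and 0.14 at ZT0, and in those labelled Trx to between -0.18 at ZT8 and 0.16 at ZT20. The 3 highest time points were ZT16, ZT20 and ZT0 in 115 members in the control, 117 with the Set1 label, 63 with Trr and 66 with Trx. ZT20 was the highest time point of 80 members in the control and 85 with Set1, while with Trr it was ZT0 for 53 and ZT20 for 40.

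**Figure D1:**
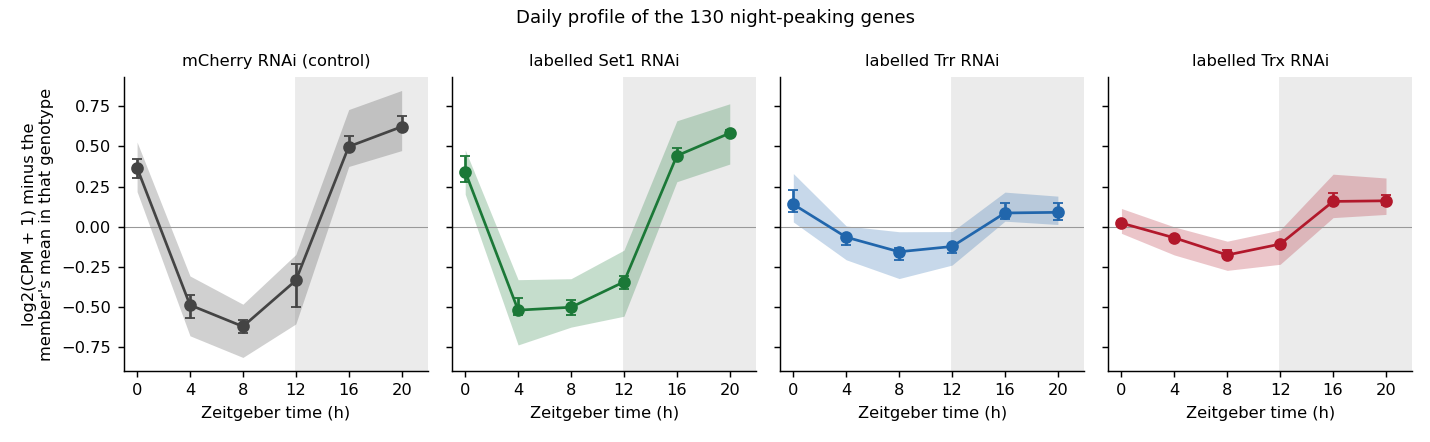
Median over the 130 members of log2(CPM + 1) minus each member's own mean in that genotype, by zeitgeber time in hours. Bands span the quartiles over members, whiskers the lowest and highest library median (3 libraries per point, 2 for Set1 at ZT20), and grey marks darkness. The range from ZT8 to ZT20 is -0.62 to 0.62 in the control and -0.18 to 0.16 with the Trx label.

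In the libraries labelled Set1 nearly every member kept a night peak. Only the 53 knockdown libraries entered the test of a rhythm, which was edgeR's quasi-likelihood F test of the cosine and sine terms with Benjamini-Hochberg adjustment over 14681 features. It was passed at an adjusted p under 0.05 by 128 of the 130 members. The background was high, at 46.3% of all features and 61.7% of features of at least 20 CPM. The mean of ZT16 and ZT20 (night) was above that of ZT4 and ZT8 (day) in 127 members at the same threshold, against 14.6% of all features and 24.9% of those at 20 CPM. It was below in 1 (21.2% and 27.0%). The median night-minus-day difference of members was 1.004 on the log2 scale, against -0.08 for all features. The median amplitude was 1.40 and the median ratio to the control 0.89, with quartiles of 0.75 and 1.02, and 92 members had a lower amplitude than in the control. Of the 128, 117 still peaked between ZT15 and ZT21 (91.4%, against 22.9% of all rhythmic features and 28.9% of those at 20 CPM). Within 2 h of their control peak were 122.

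The exceptions with the Set1 label were few. The gene a (arc), which encodes a PDZ-domain protein of adherens junctions, was the 1 member lower by night: it was at 22.9 to 31.3 CPM by night and 27.9 to 40.2 CPM by day (log2 difference -0.38, SE 0.07, edgeR adjusted p = 4.36e-05), with ranges that overlapped, and its fitted peak was at ZT3.84 against ZT19.97 in the control. CG5151 (0.26, adjusted p = 0.149) and asRNA:CR45133 (0.35, adjusted p = 0.0977) passed neither edgeR test, and most of the exon bases of each are shared with another gene. The 17 members that peaked earliest in the control, from ZT15 to ZT18, all passed both tests with Set1, with a median peak 1.45 h later than in the control. The other 113 had a median shift of -0.01 h. Since the early members were picked for an early control peak, that shift is a description of a selected edge.

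With the Trr label most of the daily change was gone. The median amplitude was 0.42, the median ratio to the control 0.28, and 79 members were under 0.5. A rhythm was called in 77 members (11% of all features, 18.8% at 20 CPM), and 58 were higher by night (3.91% and 7.85%). No member was called lower by night with edgeR (2.66% and 4.69% of features), with 1 at an unadjusted p under 0.05 and 1 by DESeq2. The direction was still kept by most, since the night-minus-day difference was above 0 in 122 members, against 52.5% of all features and 59.7% at 20 CPM, with a median of 0.26. Of the 77, 44 peaked in the ZT15 to ZT21 window (57.1%, against 19.9% of all rhythmic features and 21.8% of those at 20 CPM). Another 29 peaked from ZT21 to ZT24 and 4 from ZT0 to before ZT15. The latter range takes in peaks just after lights on, such as that of CG44195. The median peak of the 77 was 1.04 h later than in the control. Without replicate 1, 2 or 3 the rhythmic members numbered 35, 47 and 51, and 30 were higher by night without replicate 2.

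With the Trx label the daily change was also small, and called peaks lay mostly in the night window. The median amplitude was 0.40 and the median ratio 0.28. A rhythm was called in 60 members (6.55% of all features, 11.1% at 20 CPM) and 71 were higher by night (3.08% and 7.9%). None was called lower by night with edgeR (3.55% and 4.01% of features), with 1 at an unadjusted p under 0.05 and 1 by DESeq2. The night-minus-day difference was above 0 in 125 members, against 50.8% of all features and 64.1% at 20 CPM, with a median of 0.31 against 0.0035 for all features. Of the 60 rhythmic members 50 peaked in the night window (83.3%, against 25.1% of all rhythmic features and 37.9% of those at 20 CPM). The other 10 peaked from ZT21 to ZT24 and none earlier, and the median shift of the 60 from the control was 0.23 h. Without replicate 2 the counts were 36 rhythmic and 45 higher by night. A rhythm was called with both labels in 52 members (4.08% of all features, 7.41% at 20 CPM) and with either in 85 (13.4% and 22.5%). Of the 45 with neither, 44 were rhythmic with Set1.

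**Figure D2:**
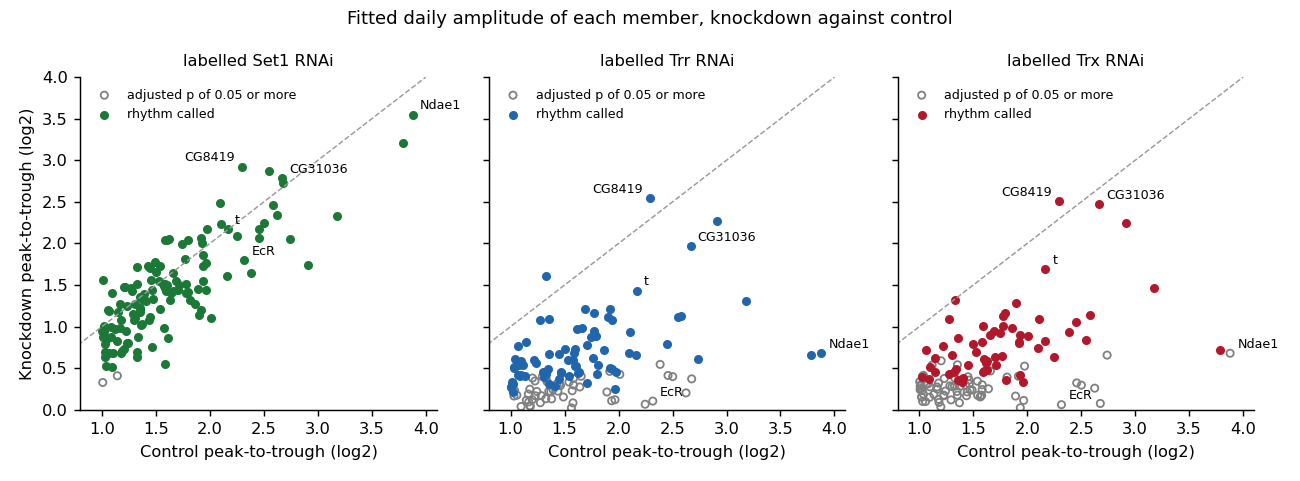
Fitted peak-to-trough difference (log2) of each of the 130 members in the libraries labelled Set1, Trr and Trx, against the control. Filled points have a called rhythm, and the dashed line marks equal amplitude. Points lie along the line with Set1 (median ratio 0.89) and mostly far below it with Trr and Trx (0.28 each), while CG8419 lies above it in all 3 panels.

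**Figure D3:**
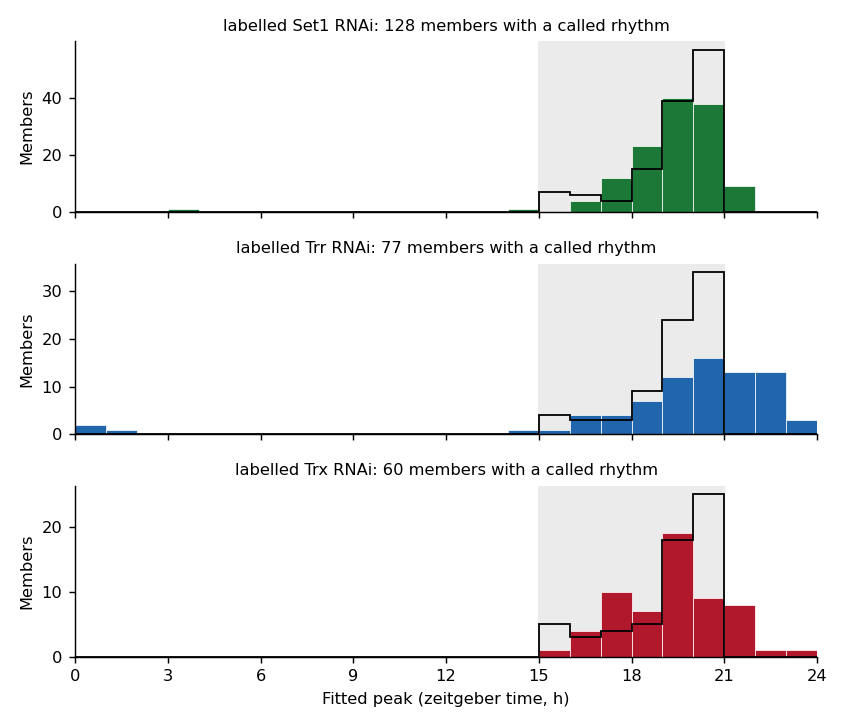
Fitted peak time (h) of the members with a called rhythm in each knockdown, in bins of an hour, as filled bars. The black outline is the control peak of the same members and grey marks ZT15 to ZT21. The bars with Trr extend past ZT21, where 29 of 77 members peaked.

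Libraries were also compared singly. Every ZT16 and ZT20 library lay above every ZT4 and ZT8 library in 123 members in the control, which the rule favours (4.09% of features), 118 with Set1 (6.38%), 34 with Trr (1.52%) and 52 with Trx (1.84%). Rhythms were then compared directly between knockdowns, which use no control library. The rhythm differed between Set1 and Trr in 101 members (29.4% of all features, 41.9% at 20 CPM) and was larger with Set1 in 99 of them. Between Set1 and Trx it differed in 100 (20.4% and 33.5%), or in 62 without replicate 2, and was again larger with Set1 in 99 of the 100. Both differences were called in 93 members (16.9% and 27.8%). The median amplitude difference was 0.86 on the log2 scale in both pairs. Between Trr and Trx no member was called with edgeR (0.334% and 0.763% of features). An unadjusted p under 0.05 was reached by 15 members and by 9.28% of all features. DESeq2 called Kank alone (adjusted p = 0.0391, against 0.127 with edgeR). The quartiles of the amplitude difference, Trr minus Trx, were -0.09 and 0.13. Set1 libraries share a platform with the control and not with Trr and Trx, so the platform cannot be told apart from the label in these pairs.

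Ion transport held the largest control rhythm. Ndae1, a sodium-driven anion exchanger (FBgn0259111, 2L 7223328 to 7249343, build BDGP6.46), was at 1211, 1241 and 1326 CPM in the 3 control libraries at ZT20 and 96.2, 121 and 119 CPM at ZT8. With Set1 it was at 1099.8 and 1085 CPM at ZT20, in the 2 libraries there, and 175, 194 and 171 CPM at ZT8. The Trr libraries had 558, 552 and 586 CPM at ZT20 and 327, 384 and 376 CPM at ZT8. Those labelled Trx had 628, 589 and 626 CPM at ZT20 and 414, 389 and 374 CPM at ZT8. Night and day libraries did not overlap in any of the 4 groups, but the gap between them was narrower with Trr and Trx. The night-minus-day log2 difference was 2.11 (SE 0.11) with Set1, 0.61 (SE 0.10, edgeR adjusted p = 3.6e-05) with Trr and 0.51 (SE 0.10, adjusted p = 0.00039) with Trx. The amplitude went from 3.88 in the control to 0.68 and 0.68, and the rhythm test was passed with Trr (edgeR adjusted p = 0.0328) but not with Trx (adjusted p = 0.0849). CG43800 lies inside Ndae1 on the same strand and had nearly the same profile (amplitudes of 3.79, 3.21, 0.66 and 0.72 in control, Set1, Trr and Trx), and the pair shares its span.

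Potassium channels were among the most abundant members. Sh, the voltage-gated channel Shaker (FBgn0003380, X 17924307 to 18063247), ranged over 12250.3 to 18682 CPM by night and 3622 to 8234 CPM by day in the control. With Set1 it was at 8643 to 10931 CPM by night and 4737 to 6224 CPM by day, still without overlap. It overlapped with both other labels, with 3903 to 6082 CPM by night and 2598 to 5768 CPM by day for Trr and 2806 to 5363 CPM by night and 2448 to 4058 CPM by day for Trx, and the night-minus-day test was not passed (adjusted p = 0.25 and 0.332, edgeR). eag, a channel of the ether-a-go-go family (FBgn0000535, X 14955477 to 15009989), was at 4130.5, 4174 and 5259 CPM at ZT20 and 1599, 1621 and 1521 CPM at ZT8 in the control, against 742, 713 and 864 CPM and 519, 439 and 412 CPM with Trx. It stayed higher by night with Trx (0.75, SE 0.13, edgeR adjusted p = 3.46e-05) and with Trr (0.58, adjusted p = 0.0017), the latter not without replicate 2. SK, the calcium-activated channel, had an amplitude of 1.62 in the control and 0.86, 0.98 and 0.56 with Set1, Trr and Trx. unc-13, which primes synaptic vesicles, went from 1.03 to 0.69, 0.50 and 0.40. qvr, a GPI-linked regulator of Shaker, went from 1.12 to 0.97, 0.53 and 0.54. Of the 8 channel and transporter genes (with Nhe2, Ae2, OtopLa and ppk25, grouped after their values were seen), 8 were higher by night with Set1, 4 with Trr and 3 with Trx, beside 127, 58 and 71 of all 130 members. Lists of a pathway are to be read against all features, of which 14.6%, 3.91% and 3.08% were higher and 21.2%, 2.66% and 3.55% lower with Set1, Trr and Trx. At 20 CPM, a level most listed genes reached, these shares were 24.9%, 7.85% and 7.9% higher and 27.0%, 4.69% and 4.01% lower. Lists with members also hold genes that the rule chose for a night peak. In a list of 35 synapse and ion channel genes, among them the members unc-13, Sh and eag, 13 were higher and 7 lower by night with Set1. With Trr these counts were 2 and 0, and with Trx 2 and 0.

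No rhythm of the ecdysone receptor was detected with Trr or Trx, at a mean level that did not fall. EcR (FBgn0000546, 2R 6087873 to 6169087), the nuclear receptor for the moulting hormone, was at 474, 514 and 507 CPM at ZT20 and 143, 115 and 131 CPM at ZT8 in the control. The Set1 libraries had 525 and 512 CPM and 188, 211 and 189 CPM at these times, also without overlap between night and day. With Trr they were 414, 392 and 424 CPM and 421, 432 and 415 CPM. With Trx they were 418, 396 and 425 CPM and 425, 386 and 397 CPM. Night and day thus overlapped in both, in CPM near the control night and, with TMM scaling, nearer the control mean. The amplitude was 2.32 in the control, 1.80 with Set1, 0.10 with Trr and 0.06 with Trx. The night-minus-day difference was -0.02 (SE 0.06) with Trr and 0.02 (SE 0.06) with Trx. Its mean level on the TMM scale changed by 0.23 (SE 0.05) and 0.14 (SE 0.05), short of the fold threshold. CG14589, whose span lies within that of EcR on the other strand, went from 2.62 to 0.20 and 0.26.

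Also members were the ecdysone-response genes Eip74EF, Eip75B and ftz-f1, which encode an ETS factor and a pair of nuclear receptors. All were higher by night with Set1, by 1.38, 0.82 and 0.73 on the log2 scale. With Trr Eip75B passed (0.42, edgeR adjusted p = 0.00551), though not without replicate 2 or 3, and Eip74EF (0.18) and ftz-f1 (0.13) did not. With Trx none of the 4, EcR included, passed. Over all 130 members 58 were higher by night with Trr and 71 with Trx. The DNA-binding transcription factor list, of 53 genes, had 15 higher and 16 lower by night with Set1, 4 and 4 with Trr, and 5 and 8 with Trx. Its other members were fru, Mef2 and crc. fru (FBgn0004652, 3R 18414273 to 18545586), the sex-determination factor, was at 1291, 1333 and 1322 CPM at ZT20 and 655, 572 and 497 CPM at ZT8 in the control, 635, 551 and 597 CPM and 290.3, 341 and 350.1 CPM with Trr, and 485, 459 and 546 CPM and 377, 329.9 and 335 CPM with Trx, without overlap in any group. Mef2, a MADS-box factor, went from an amplitude of 1.96 to 0.25 and 0.33. It was still called higher by night, by 0.23 with Trr (edgeR adjusted p = 0.0182) and 0.29 with Trx (adjusted p = 0.00136), with the Trr call lost without any of the 3 replicates.

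No rhythm was called with Trr or Trx in the 3 insulin and nutrient signalling members, grouped after their values were seen. Of all 130 members, 53 with Trr and 70 with Trx also had no called rhythm, so nothing particular to the group is read from this. InR (FBgn0283499, 3R 21570248 to 21619321), the insulin receptor, was at 249, 254 and 266 CPM at ZT20 and 97.8, 85.8 and 83.3 CPM at ZT8 in the control. It was at 245, 247 and 225 CPM and 229, 234 and 209 CPM with Trr, and at 239, 206 and 226 CPM and 205, 186 and 195 CPM with Trx. Over the ZT16 and ZT20 libraries and the ZT4 and ZT8 libraries, night and day overlapped with both labels. Its amplitude was 1.94 in the control, 1.55 with Set1, 0.11 with Trr and 0.02 with Trx. Thor, the 4E-BP that restrains cap-dependent translation (FBgn0261560, 2L 3478434 to 3479612), was at 40.4 to 64.2 CPM by night and 7.32 to 15.5 CPM by day in the control and 72.3 to 100.3 CPM by night and 20.02 to 37.1 CPM by day with Set1. With Trr it was at 31.5 to 41.4 CPM by night and 21.7 to 38.2 CPM by day and with Trx at 30.2 to 40.5 CPM by night and 23.9 to 33.4 CPM by day, so the groups overlapped, and neither passed the test (edgeR adjusted p = 0.258 and 0.369). FoxK, a forkhead factor, went from 1.64 to 1.40, 0.27 and 0.25. None of these 3 passed either test with Trr or Trx. Among 23 insulin and TOR genes, 7 were higher and 4 lower by night with Set1, 0 and 0 with Trr, and 1 and 0 with Trx.

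In visual signalling, inaD was higher by night with all 3 labels. It encodes the PDZ scaffold of the phototransduction complex (FBgn0001263, 2R 22855688 to 22858794) and had amplitudes of 1.33 in the control and 1.72, 1.61 and 1.32 with Set1, Trr and Trx, the Trr value being 1 of only 2 at or above the control. It was at 1432, 1569.9 and 1059.6 CPM at ZT20 and 516, 545 and 574 CPM at ZT8 in the control, against 448, 519 and 466 CPM and 182, 156 and 189 CPM with Trr. With Trx it was at 528, 544 and 513 CPM and 195, 224 and 202 CPM. Night exceeded day by 0.83 (SE 0.11) with Trr and 0.89 (SE 0.11) with Trx (edgeR adjusted p = 1.77e-07 and 4.51e-08). Night and day libraries overlapped with Trr and also in the control, at 1059.6 to 1569.9 CPM by night and 516 to 1192 CPM by day. Pkc53E, a conventional protein kinase C, was at 564 to 684 CPM by night and 331 to 464 CPM by day with Trr and 652 to 798 CPM by night and 372 to 476 CPM by day with Trx, with no overlap in either. Among the 30 genes tested of the phototransduction list, of which inaD is the member, 10 were higher and 7 lower by night with Set1, 3 and 1 with Trr, and 10 and 1 with Trx.

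Histamine recycling was represented by t (tan; FBgn0086367, X 9217655 to 9223257), the hydrolase that releases histamine from its conjugate. Its control libraries were at 720.4, 577 and 710.5 CPM at ZT20 and 158, 165 and 170.1 CPM at ZT8. It was at 433 and 487 CPM and 120.4, 116 and 146 CPM with Set1, 176, 182 and 183 CPM and 67.5, 65.00 and 72.4 CPM with Trr, and 212, 251 and 203 CPM and 78.2, 91.97 and 81.3 CPM with Trx. Night libraries stood above day libraries in all 4 groups, at a much lower level with Trr and Trx. The night-minus-day difference was 0.95 (SE 0.10, edgeR adjusted p = 1e-09) with Trr and 0.97 (SE 0.10, adjusted p = 4.87e-10) with Trx, and the mean level fell by 2.37 and 2.21 on the log2 scale. Members for second-messenger breakdown had no called night rise with Trr or Trx. Pde11, a cyclic nucleotide phosphodiesterase, was at 163 to 217 CPM by night and 59.4 to 85.1 CPM by day in the control and at 221 to 259.5 CPM by night and 204 to 259 CPM by day with Trr, with an amplitude of 0.21. The cAMP phosphodiesterase gene dnc went from 1.14 to 0.41 and 0.18, and neither passed the night-minus-day test with either label. In the role group of phototransduction and second messengers, with 4 members, a rhythm was called in 3 with Trr and 2 with Trx. Over all 130 members these counts were 77 and 60.

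Among the members named for the largest amplitudes with Trr and Trx were genes with little annotation. CG8419 (FBgn0031999, 2L 8206171 to 8209637) was at 135, 113 and 128 CPM at ZT20 and 17.6, 26.2 and 28.5 CPM at ZT8 in the control. With Trr it was at 40.4, 40.4 and 38.9 CPM and 7.25, 5.3 and 6.42 CPM, and with Trx at 47.2, 53.2 and 45.7 CPM and 7.13, 11.2 and 8.58 CPM. The level was far lower, but night and day were fully separate, and the amplitudes of 2.54 and 2.51 exceeded the 2.29 of the control. The night-minus-day difference was 1.96 (SE 0.12, edgeR adjusted p = 5.3e-16) with Trr and 1.997 (SE 0.12, adjusted p = 5.72e-16) with Trx. CG31036 (FBgn0051036, 3R 29908107 to 29912892) likewise had amplitudes of 2.67, 2.79, 1.96 and 2.47 in control, Set1, Trr and Trx, at 33.1 to 49.3 CPM by night and 8.16 to 12.2 CPM by day with Trx. CG44195, most of whose exon bases are shared with Ank2, had amplitudes of 2.91, 1.74, 2.28 and 2.25 in the same order and a fitted peak that went from ZT20.88 in the control to ZT0.09 with Trr and ZT22.45 with Trx. It passed the rhythm test with Trr (edgeR adjusted p = 4.21e-10) and not the night-minus-day test (difference 0.00, adjusted p = 1). asRNA:CR45131, whose span overlaps M7BP on the other strand and which shares 41.2% of its exon bases with CG43341, had amplitudes of 3.18, 2.33, 1.31 and 1.46. For lncRNA:CR43991 they were 2.74, 2.06, 0.61 and 0.66, and for CG12541 2.68, 2.72, 0.37 and 0.08.

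**Figure D4:**
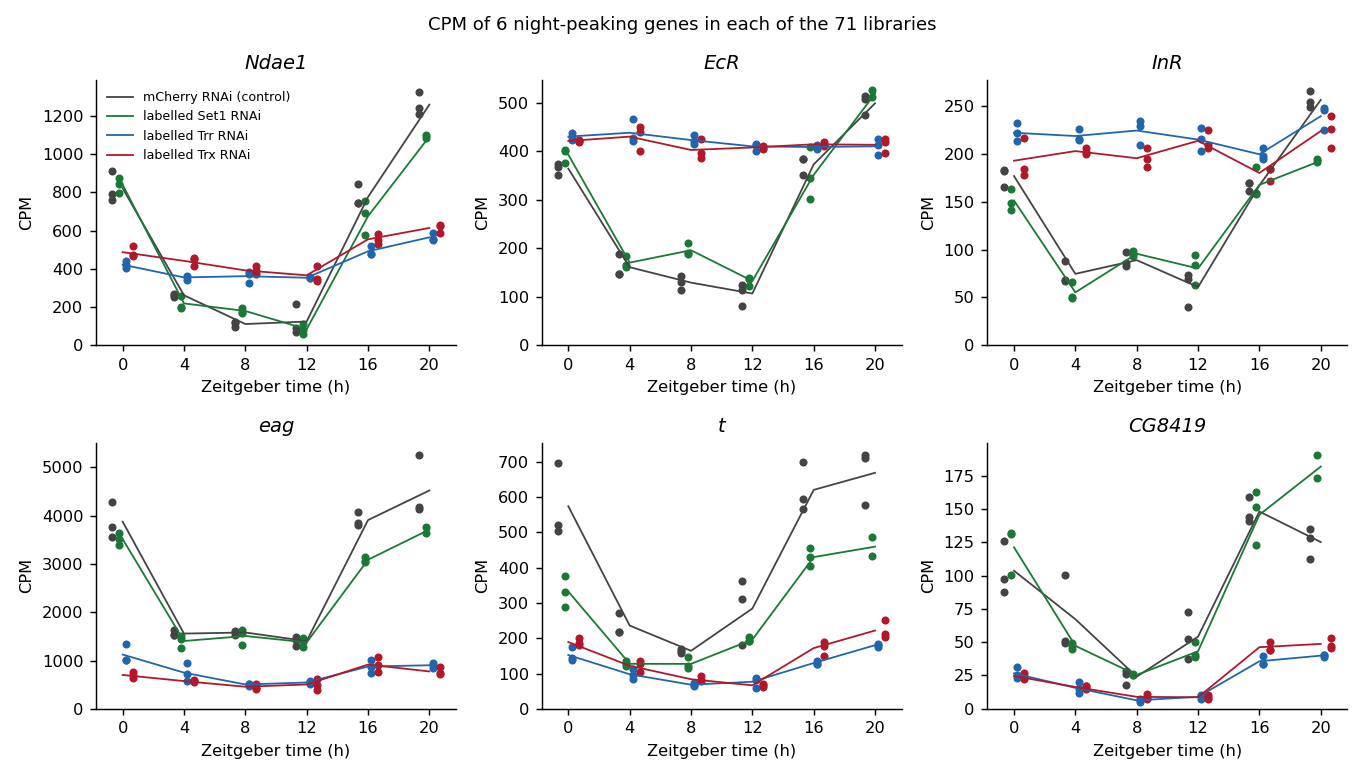
CPM (scaled to file totals) of Ndae1, EcR, InR, eag, t and CG8419 in each of the 71 libraries by zeitgeber time, with lines through the group means. EcR and InR run flat with Trr and Trx, whereas t and CG8419 are lower than in the control and higher by night than by day.

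Junction, adhesion and cytoskeleton genes formed the largest role group, with 14 members (grouped after their values were seen). pyd, the ZO-1 homolog of adherens junctions (FBgn0262614, 3R 8827068 to 8931896), was at 4503 to 6907 CPM by night and 1549 to 1902 CPM by day in the control. It was at 1278 to 1473 CPM by night and 885 to 1204 CPM by day with Trr and 1199 to 1750.2 CPM by night and 855 to 1039 CPM by day with Trx, with no overlap in any of these. Dyb, the dystrobrevin of the dystrophin complex, went from an amplitude of 2.58 to 2.47, 1.13 and 1.14. Of the 14, 14 were higher by night with Set1, 8 with Trr and 8 with Trx, beside 127, 58 and 71 of all 130 members and 14.6%, 3.91% and 3.08% of all features, and nothing particular to the group is read from these counts. M7BP, a binding partner of myosin VIIa and the third most abundant member (FBgn0263077, 2R 7623242 to 7651787), kept amplitudes of 1.08 and 1.10 against 1.27 in the control, at 1698 to 2044 CPM by night and 890.5 to 1245 CPM by day with Trx.

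Genes for RNA processing, export and decay had median amplitudes far under the control with Trr and Trx. The 7 members, grouped after their values were seen, were sbr (the mRNA export receptor), su(sable), larp, unk, PAN3, Tob and Srpk79D. Their median amplitude went from 1.37 to 1.04, 0.22 and 0.17. Over all 130 members it went from 1.48 to 1.40, 0.42 and 0.40. All 7 were higher by night with Set1 and 1 with Trr and with Trx, namely larp, a La-related RNA-binding protein. Beside these stand 127, 58 and 71 of all 130 members and 14.6%, 3.91% and 3.08% of all features. larp was at 374 to 515 CPM by night and 178 to 319 CPM by day in the control and 774 to 895 CPM by night and 583 to 689 CPM by day with Trr, with a difference of 0.40 (SE 0.07, edgeR adjusted p = 0.000161) and no overlap. sbr had amplitudes of 0.02 and 0.15 with these labels, against 1.56 in the control. The list of 41 RNA-binding and splicing genes had 7 higher and 11 lower by night with Set1, 2 and 1 with Trr, and 2 and 0 with Trx. tna, a trithorax-group gene, was the member on the list of 48 chromatin genes tested, in which 10 were higher and 9 lower with Set1 and 0 in either direction with Trr or Trx, and its amplitude went from 1.57 to 0.98, 0.23 and 0.16.

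Metabolic enzymes were mixed. Gclc, the catalytic subunit of glutamate-cysteine ligase in glutathione synthesis (singled out after its values were seen), was at 77.5 to 97.5 CPM by night and 36.9 to 57.1 CPM by day in the control. With Trr it was at 129 to 188 CPM by night and 87.5 to 105 CPM by day and with Trx at 121 to 197 CPM by night and 95.3 to 105 CPM by day. Night and day did not overlap in any of the 4 groups, and the differences of 0.73 (SE 0.09) and 0.64 (SE 0.09) exceeded the 0.56 with Set1, without a called difference in rhythm (adjusted p = 0.181 and 0.214, edgeR). AMPdeam, AMP deaminase, by contrast had an amplitude of 1.23 in the control and 1.25, 0.17 and 0.18 with Set1, Trr and Trx. Lists without any member gave the wider picture. By night 15 of 29 autophagy genes were higher and 1 lower with Set1, 1 and 0 with Trr and 0 and 0 with Trx. Carbohydrate genes had 2 higher and 12 lower with Set1, 2 and 1 with Trr, and 0 and 10 with Trx. For lipid genes these counts were 4 and 10, 1 and 2, and 0 and 8, for stress genes 5 and 4, 1 and 1, and 0 and 3, and for clock kinases, phosphatases and F-box genes 2 and 6, 0 and 2, and 1 and 0.

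The mean level over the day was compared with the control in all 71 libraries, a measure the rule used only as a floor of 20 CPM. A change was called at an edgeR adjusted p under 0.01 and a log2 change of at least 1 in either direction. With Set1 1 member was lower, the nuclear pore membrane gene Gp210 (-1.001, SE 0.05), at the edge of the threshold, and none was higher (0 by DESeq2). Over all features 7.26% were higher and 1.66% lower, and at 20 CPM 1.55% and 0.681%. Small changes of members with Set1 were mostly downward. At an unadjusted edgeR p under 0.05, 73 members were below the control and 15 above it. Shares of all features at an unadjusted p are not given for mean level, so such counts describe the members only. The median log2 change over all members was -0.16, against 0.01 for all features and -0.04 at 20 CPM. With Trr 63 members were lower and none higher (16 above 0 at an unadjusted p under 0.05, and 2 by DESeq2), where 17.9% of features were lower and 28.5% higher, or 22.8% and 12.5% at 20 CPM. With Trx 67 were lower (18.7% of features, 23.9% at 20 CPM) and 1 was higher (28.5% and 12.7%). The one that rose was Syn2, a syntrophin (1.02, SE 0.07). The median log2 change of members was -0.99 with Trr and -1.06 with Trx, against 0.08 and 0.09 for all features and -0.32 and -0.36 at 20 CPM.

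These counts depend on scaling. With file totals in place of TMM factors the median of all features moved to 0.71 with Trr and 0.78 with Trx, the medians of members became -0.36 in both, and the calls became 8 higher and 41 lower with Trr and 10 higher and 41 lower with Trx. Restricting to the 109 members of at least 40 CPM left 57 and 61 lower. The largest falls were in asRNA:CR45133 (-2.96 and -3.47 with Trr and Trx), most of whose exon bases are shared with KCNQ, CG15631 (-2.68 and -2.86) and lncRNA:CR43661 (-2.50 and -2.98) on the TMM scale. No member was called higher with both labels at the 1 log2 limit. Syn2 came nearest, at 0.96 with Trr (edgeR adjusted p = 1.06e-19) and 1.02 with Trx, and Ae2 (0.95 and 0.68) and Drat (0.65 and 0.91) were also above the control by less than the limit. In bulk nuclei, fewer cells of a type and less RNA per cell cannot be told apart.

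Mean level and night rise are set side by side here, with no test between them. The 60 members that fell with both Trr and Trx compare with 16.8% of all features and 21.7% at 20 CPM. Of these 60, 39 (65.0%) were higher by night with Trr and 48 (80.0%) with Trx, with median amplitudes of 0.65 and 0.66. Of the 60 that fell with neither, the numbers were 17 (28.3%) and 18 (30.0%), and the median amplitudes 0.31 and 0.28. With Set1 the groups had 59 and 58 members higher by night. The split was made after the values were seen and is a description. The control levels of the groups differed too, with medians of 328 and 109 CPM. Gclc, larp and Drat, picked after their values were seen, were higher by night with both labels at a mean level that did not fall, and AMPdeam and crc fell in mean with both and passed the night test with neither.

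Cell type markers moved with the labels. The 15 outer photoreceptor markers, which include inaD, summed to 51494 to 92201 CPM in the control, 49574 to 74156 CPM with Set1, 18688 to 28873 CPM with Trr and 19027 to 31744 CPM with Trx. All 15 were below the control in the fit with each label, at a median fold of 0.844, 0.193 and 0.185. Folds here are from the fit with TMM scaling and sums are in CPM by file totals, so the 2 are on different scales. By median gene, marker lists of other cells were above it with Trr and Trx, at folds of 4.07 and 4.64 for 4 inner photoreceptor genes, 3.20 and 3.99 for 5 lens and pigment cell genes, 3.33 and 2.93 for 12 brain neuron genes, 2.59 and 2.54 for 9 glial genes, 19.8 and 21.9 for 12 muscle genes, 4.22 and 4.49 for 8 fat body genes tested of 11, and 2.198 and 2.271 for 8 hemocyte genes. With Set1 these median folds lay between 0.843 and 1.112, but the summed level of lens and pigment markers had a median of 2150.3 CPM against 673 CPM in the control (ranges of 1054 to 5053 and 279 to 4490.1 CPM), and that of glial markers 770.2 against 342 CPM (ranges of 319 to 1906 and 243 to 1129.7 CPM). Markers at 0 numbered 0 in every list and group except 1 fat body gene with Trx. In the fit, 2 and 3 of the 12 muscle genes were below the control with Trr and Trx. Below it with both of these labels were also 1 of the 5 lens and pigment genes and 1 of the 8 hemocyte genes. With Trr 1 of the 9 glial genes was below it too. Summed levels ran from 473 to 909 CPM in the control, 2673 to 3937 CPM with Trr and 2533 to 3333 CPM with Trx for brain neurons. For the fat body these were 861 to 1852, 8525 to 13483 and 7433 to 14219 CPM, for muscle 937 to 1756, 1489 to 4473 and 1962 to 5043 CPM, for glia 243 to 1129.7, 862 to 1358 and 987 to 1517 CPM, for inner photoreceptors 49.2 to 217, 331 to 798 and 504 to 1025 CPM, and for hemocytes 249 to 413, 737 to 970.3 and 752 to 996 CPM. The lens and pigment list, led by a few abundant genes, summed to 279 to 4490.1, 261 to 587 and 271 to 650.2 CPM, so its sum was not higher with Trr or Trx. The part of these markers in the members' lower amplitude and level was not tested. Between night and day the outer photoreceptor sum overlapped in each knockdown, at 20040.1 to 22097 CPM by night and 18938 to 27061 CPM by day with Trr, and 23617 to 26813 and 19975 to 26032 CPM with Trx. Some other lists did separate by time of day, in the direction opposite to the members. Glial markers summed to 243 to 315 CPM by night and 460.4 to 1129.7 CPM by day in the control, and to 319 to 444 and 969 to 1906 CPM with Set1. For lens and pigment markers these were 279 to 434 and 1158 to 4490.1 CPM in the control, 1054 to 1916 and 2782 to 5053 CPM with Set1, and 261 to 342 and 359.8 to 587 CPM with Trr. Muscle markers in the control were also lower by night, at 949 to 1344 against 1346 to 1756 CPM. The part of these in the members' night rise was not tested.

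**Figure D5:**
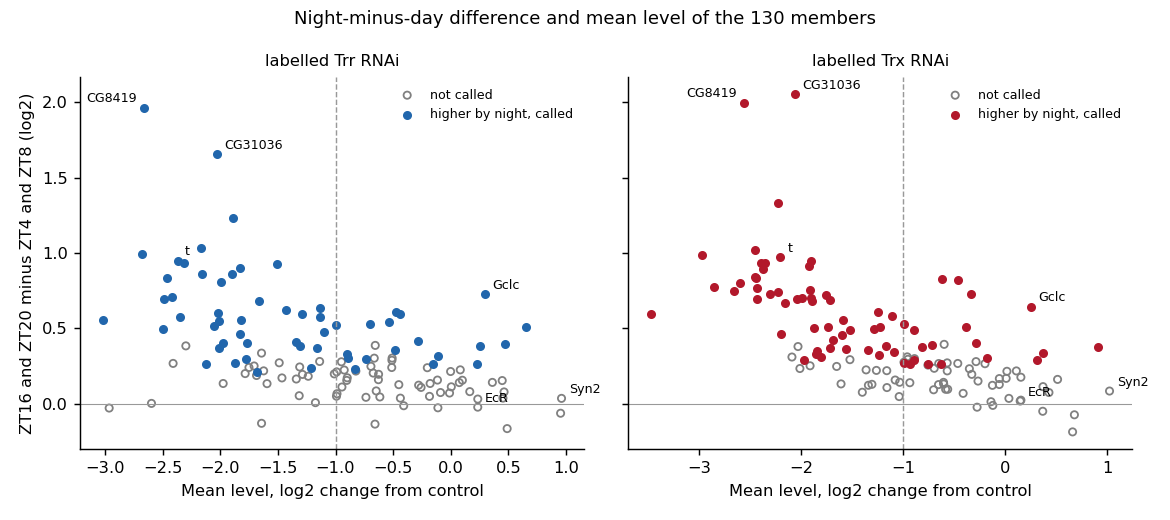
Night-minus-day log2 difference of each member (vertical) against its log2 change in mean level from the control (horizontal), with the Trr and Trx labels. Filled points passed the night-minus-day test and the dashed line marks a fall of 1. Most filled points lie left of the line, with CG8419 and CG31036 highest and EcR, near 0 on both axes, not called.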

How the data were processed

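Nuclear RNA-seq of 72 libraries was used as deposited. The authors counted read pairs on the exons of each gene with featureCounts (Subread 2.0.1), in paired mode and without strand, after trimming with cutadapt 3.7 and Trimmomatic 0.39 and alignment with HISAT2 2.2.1 to BDGP6.46, and deposited raw counts without normalization. The number of RUVseq factors that the authors removed in their own tests is not given in the sources used here, so none was removed. CPM used file totals of 8424081 to 24586538. These totals set counting error only, and precision comes from the 3 replicates of each genotype and time.

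Cosines were fitted by least squares with numpy 2.4.6 in Python 3.11.15. Tests used edgeR 4.0.16 (R 4.3.3) with TMM factors, on features that reached 1 CPM in all replicates of any 1 genotype at any 1 time, 14681 in the knockdown fit and 14767 in the fit for mean level. The dispersion of a gene was estimated over all libraries of a fit. Spread around the cosine in any knockdown thus enters the rhythm tests of the others. DESeq2 1.42.0, file totals, other filters, pseudocounts, R2 limits, 1 RUVs factor, a replicate block and left-out replicates were alternatives. Replicate numbers were not treated as pairs in the main fits. On simulated counts the rhythm test with the Trr design found 77 of 100 genes of amplitude 1 and 100 of 100 of amplitude 2, and called 10 of 14367 flat ones. Smaller amplitudes, such as the member medians of 0.42 with Trr and 0.40 with Trx, were not simulated. How often such rhythms are missed is therefore not known.

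Named genes were the 10 members with the largest control amplitude, the 5 most abundant, the 4 with the largest Trr and Trx amplitude among those rhythmic in both, the 3 largest rises (0 qualified) and 3 largest falls of mean level in both, at most 4 in each pathway list, spen, and the features nearest each threshold. Others were named, and role groups formed, after their values were seen. The values of 1 gene that this rule names are not reported here. The members, marker lists and pathway lists were chosen with earlier results of these data known. Names matched 23750 of 24278 identifiers. Coordinates are those in the deposited files, biotypes come from a later Ensembl annotation, and no promoter or protein sequence was used.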

Additional observations from a re-analysis of the deposited data

Results flagged for a closer look

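The daily rhythm differed between knockdowns by the edgeR test of the difference itself. It differed in 101 of 130 members between the libraries labelled Set1 and Trr, and in 100 between those labelled Set1 and Trx. Over all features the shares were 29.4% and 20.4%, and at 20 CPM 41.9% and 33.5%. The amplitude was larger with Set1 in 99 members of each. Sequencing platform differs in the same way between these libraries and cannot be told apart from the label.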

How the results depend on the processing

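Of the values for counts and medians under the alternatives, 167 stayed within the spread or within 1.5 times the main count and 21 moved. Of 1130 values for single named genes, 1100 kept their side of the threshold, 30 lost it and 0 reversed. Leaving out 1 replicate number at a time gave 35 to 51 members rhythmic with Trr (77 with all), 36 to 44 with Trx (60), 30 to 47 higher by night with Trr (58), 45 to 79 with Trx (71), 62 to 85 with a rhythm that differed between Set1 and Trx (100), 0 to 1 changed in mean with Set1 (1) and a median amplitude of 1.39 to 1.40 with Set1 (1.40). The number of libraries falls in these fits. The single Set1 call, Gp210 at the edge of the fold limit, became 0 with file totals, DESeq2, at least 1 CPM in every library, all 72 libraries, 1 RUVs factor, the replicate block or without mCherry ZT12 replicate 1 (chosen after seeing the data). DESeq2 called 1 member between Trr and Trx, where edgeR called 0. An R2 of at least 0.8 chose 84 members. With TMM-scaled CPM the median amplitude was 1.61 in the control and 1.39 with Set1, and with a pseudocount of 5 it was 1.33 with Set1. For these the cause was not tested. Counts of lower members in mean fell from 63 to 41 with Trr and from 67 to 41 with Trx under file totals.

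Same-numbered libraries did not deviate together in every pair, with correlations from -0.32 to 0.51 in the control and from -0.58 to 0.67 with Trx. With Set1 they ran from -0.16 to 0.39 and with Trr from -0.58 to 0.52. Their mean was 0.10 in the control and 0.12 with Set1, against -0.05 and -0.06 for libraries of other numbers. With Trr and Trx it was -0.06 and -0.01, against 0.03 and 0.004. Whether the numbers pair libraries is not settled by these values. With the replicate block 128, 75 and 57 members were rhythmic with Set1, Trr and Trx, 127, 61 and 74 higher by night, 101, 99 and 0 differed in the Set1-Trr, Set1-Trx and Trr-Trx pairs, and 0, 63 and 69 changed in mean.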
